A study of Mus musculus with 12 samples.

Results

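The integrated stress response and the charging of tRNA were followed through 40 genes, picked by symbol from the 46983 genes in the read-count table of bone marrow B cells. They comprise 12 regulators and effectors of the response (Atf4, Atf3, Atf5, Ddit3, Trib3, Chac1, Sesn2, Cebpb, Cebpg, Nupr1, Eif2ak4 and Ppp1r15a), 5 serine and one-carbon enzymes (Phgdh, Psat1, Psph, Shmt2 and Mthfd2), 3 asparagine and proline enzymes (Asns, Aldh18a1 and Pycr1) and 20 genes for cytosolic aminoacyl-tRNA synthetases. Each symbol matched 1 Ensembl gene, and all 40 passed the filter on low counts. The series asked which genes HIF-1α, a transcription factor stabilised when oxygen is low, controls in these cells. B cells were isolated from mouse bone marrow by magnetic sorting and RNA of 12 cultures was sequenced.

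The 4 groups had 3 libraries each. The labels call the groups HIF1a KO or WT, under hypoxia or normoxia. By the methods of the study, KO cells came from mice with floxed Hif1a alleles and a Cre recombinase expressed from the Mb1 locus, which is the B cell gene Cd79a. WT cells came from control littermates, which the methods give as floxed without Cre or as Cre carriers without saying which were sequenced. Deletion by this Cre starts early in the B lineage, so other cells in the preparation keep Hif1a. No age or sex was given for these libraries, and nothing in the labels ties each library to its own mouse. The p-values therefore rest on the spread among libraries, which may be technical.

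In the integrated stress response, kinases that sense amino acid shortage, unfolded protein, heme or double-stranded RNA phosphorylate the initiation factor eIF2α. Most translation then slows, while the mRNA of the transcription factor ATF4 is translated better. ATF4 pairs with C/EBP proteins and drives genes for amino acid uptake and synthesis, many cytosolic tRNA synthetases and its own feedback regulators. Because ATF4 is controlled largely at translation, its mRNA level need not follow its activity. Low oxygen is a known trigger of this response in other mammalian cells.

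ATF4 and C/EBP proteins bind a composite element with the letters TGATGNAA, read on either strand as TGATGNAA or TTNCATCA. The 250 bases before the transcription start given by RefSeq (GRCm38.p6) were searched in 33 of the 40 genes. Cars, Hars, Lars, Nars, Rars, Vars and Wars had no entry. The letters occurred before 8 of the 33 genes, in 22.2% of their 36 windows, against 3.45% of 32851 such windows of all genes. Not every match is described. The matching stretches of 5 of the genes called in a hypoxia comparison are shown, 5′ to 3′ on the strand of the gene, with the element in capitals.
Asns, chr6:7693214-7693243, minus strand: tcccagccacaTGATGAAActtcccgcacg
Pycr1, chr11:120643833-120643862, minus strand: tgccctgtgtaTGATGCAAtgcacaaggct
Chac1, chr2:119351038-119351067, plus strand: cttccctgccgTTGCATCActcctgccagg
Gars, chr6:55037960-55037989, plus strand: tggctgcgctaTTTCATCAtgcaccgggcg
Tars, chr15:11399659-11399684, minus strand: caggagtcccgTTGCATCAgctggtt

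Read along the gene, Asns and Pycr1 carry the forward letters, and Chac1, Gars and Tars the reverse complement. The match began 23 bases before the start in Asns, 103 in Pycr1, 193 in Chac1, 30 in Gars and 15 in Tars. In GENCODE the stretch of Asns lay in an untranslated exon annotated for the same gene, while those of Pycr1, Chac1 and Gars lay outside genes. The stretch of Tars only reached with its last bases into such an exon of Tars. The annotated gene starts at 11399665 on the minus strand, so the element of Tars lay before that start. Atf3 and Nupr1, called in neither response, also held a match. A match of letters describes the window and shows neither a bound site nor the reason for a change. Of the genes with a window, the element stood before 3 of 11 that rose in WT and 5 of 21 that rose in KO, and before 5 of 18 that were not called in WT.

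Total counts were 27629175 to 36880082 per library. Hif1a read counts do not check the genotype, since gene-level counts cannot show a deleted exon: Hif1a had 106 to 136 CPM (counts scaled to library size, here to total counts) in KO libraries and 84.4 to 114 in WT libraries. Cd79a, where Cre is inserted, was lower in the KO libraries (753 to 856 against 1475 to 1853 CPM in WT libraries). In WT, the libraries numbered 1 and 2 had Y-linked reads with almost no Xist, under hypoxia and normoxia alike, Xist was present in WT library 3 and in every KO library, and KO hypoxia library 1 had both, with Y-linked reads at 46.0 CPM. The summed level of 8 monocyte and macrophage markers was 915 to 1502 CPM in KO hypoxia and 1483 to 2103 CPM in WT hypoxia. Of the 8, 4 were called lower in KO under hypoxia, beside 5.12% of all tested genes. The 8 neutrophil markers summed to 2634 to 3821 CPM in KO hypoxia and 3256 to 6135 CPM in WT hypoxia. The 8 B cell markers summed to 5828 to 6110 CPM in KO hypoxia, 6613 to 7310 in KO normoxia, 6430 to 7191 in WT hypoxia and 7321 to 8494 in WT normoxia. These sums include Cd79a, at a mean of 803 CPM in KO hypoxia, 826 in KO normoxia, 1534 in WT hypoxia and 1669 in WT normoxia. The lower Cd79a is thus part of their gap between genotypes. Of the 8 B cell markers, 2 were called lower in KO under hypoxia. Plasma cell markers summed to 1053 to 1181 CPM in KO hypoxia against 877 to 916 CPM in WT hypoxia. Irf4, 1 of the 5, was called higher, beside 4.72% of all tested genes. T and NK cell markers were at 50.6 to 83.0 CPM under hypoxia and 188 to 249.8 CPM under normoxia, and erythroid markers reached 2568 CPM in KO normoxia library 1, against at most 637 CPM elsewhere. The part of these markers in the changes of the 40 genes was not tested, except for the monocyte and neutrophil lists as covariates. Every marker of the myeloid, erythroid, plasma, T and NK cell lists had reads in every library. Sex-linked reads and myeloid transcripts differ with genotype in part of the design and cannot be told apart from it. Cd79a was lower in every KO library. Any effect of this, or of Cre if the WT cells lacked it, cannot be told apart from loss of HIF-1α.

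Hypoxia raised a set of these genes in both genotypes, and more of them passed the test in KO cells. The edgeR test of the difference between the 2 responses, given below, called 0 of the 40. In KO cells 23 of the 40 rose and 3 fell under hypoxia (edgeR quasi-likelihood test, adjusted p under 0.05 after Benjamini-Hochberg correction over 17506 genes), against 14.5% of all tested genes that rose and 15.7% that fell. In WT cells 13 of the 40 rose and 8 fell, against 11.4% and 16.3% of all tested genes. The median log2 fold change of the 40 genes was 0.41 in KO and 0.21 in WT, beside 0.04 and 0.01 over all tested genes. These comparisons share no library: 12 genes rose in both, 3 fell in both, 11 rose in KO alone, 1 rose in WT alone, 5 fell in WT alone and 8 were called in neither. WT libraries of the same number deviated together. A block on that number shared by WT and KO also called Mthfd2, Psph and Ppp1r15a in WT. A block within genotype added only Ppp1r15a in WT. The change was above that of WT in KO cells for 36 of the 40 genes. The median of this difference was 0.18 for the 40 genes and 0.03 over all tested genes. The share of all tested genes above 0 was not counted.

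**Figure D1:**
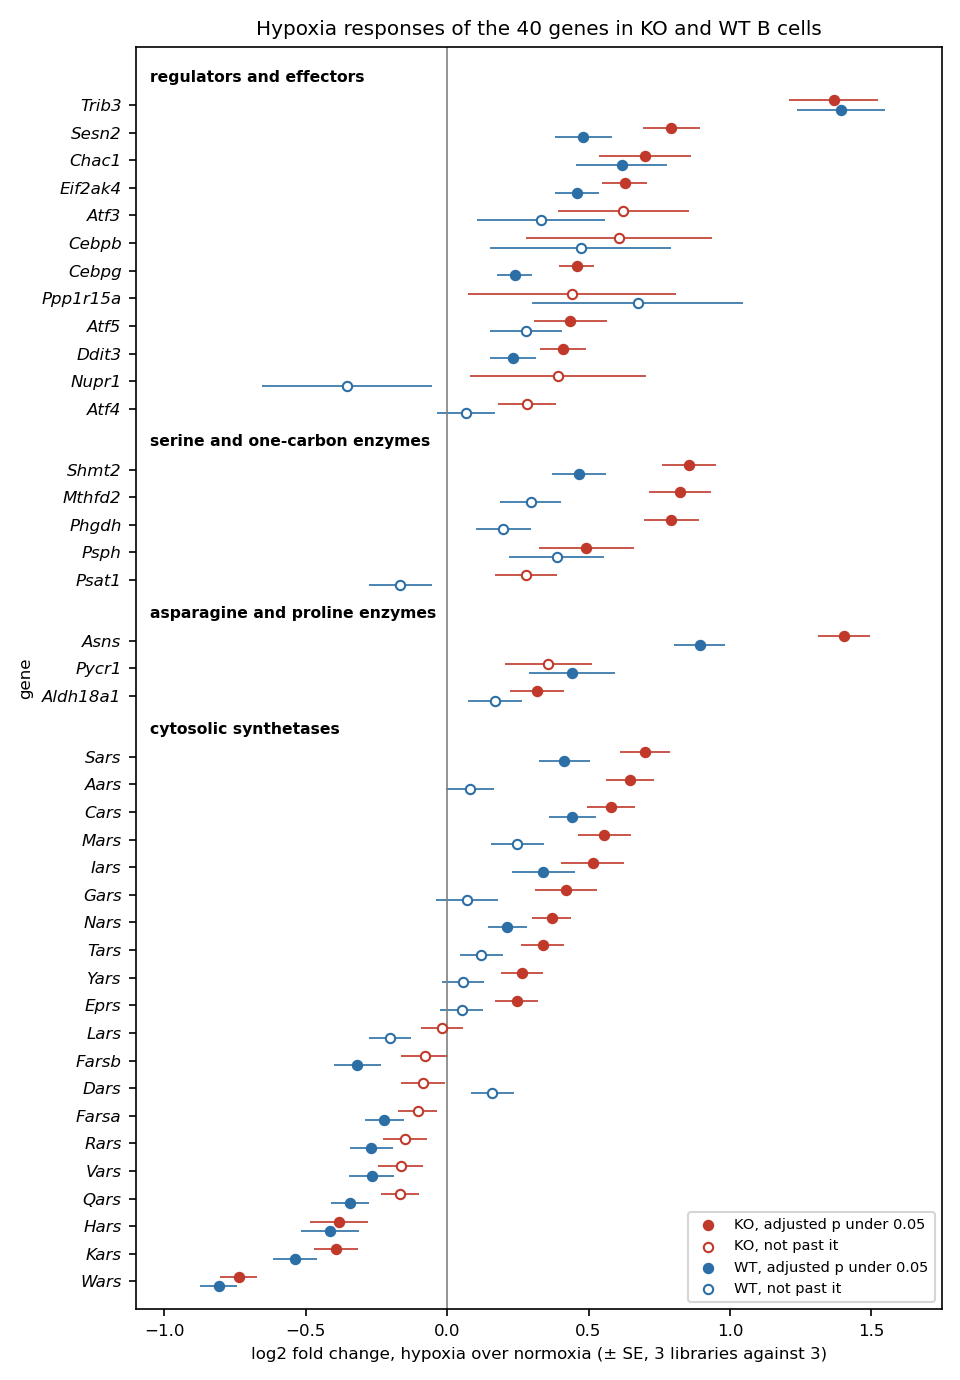
Log2 fold changes of the 40 genes, hypoxia over normoxia, in KO cells (red) and WT cells (blue), with standard errors, from 3 libraries against 3. Filled circles passed an adjusted p of 0.05. Trib3 and Asns stand furthest to the right in both genotypes, and Wars, Kars and Hars are the genes left of 0 with filled circles in both.

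Among the 12 regulators and effectors 7 rose in KO, 6 rose in WT and none fell. Their median log2 fold change was 0.53 in KO and 0.40 in WT. Over all tested genes 14.5% rose and 15.7% fell in KO, and 11.4% rose and 16.3% fell in WT. Atf4 mRNA itself (ENSMUSG00000042406, chromosome 15, 80255184 to 80257541, plus strand) moved little. It was at 366, 416 and 384 CPM in KO hypoxia, against 332, 327 and 299 CPM in KO normoxia. WT hypoxia had 341, 382 and 341 CPM and WT normoxia 329, 394 and 294 CPM. KO hypoxia libraries were all above the KO normoxia libraries, whereas the WT groups overlapped. The difference was 0.28 ± 0.10 (SE, adjusted p = 0.0509) in KO, just short of the threshold. It passed with replicate number as a block within genotype (adjusted p = 0.0112), although KO libraries were not taken as paired. In WT it was 0.07 ± 0.10 (SE, adjusted p = 0.67).

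Trib3 (ENSMUSG00000032715, chromosome 2, 152337422 to 152344032, minus strand), a pseudokinase that is induced by ATF4 and restrains it, had the largest rise of the class. KO hypoxia libraries had 20.6, 25.7 and 24.2 CPM, against 9.55, 10.9 and 6.94 CPM in KO normoxia. Trib3 stood at 21.6, 26.9 and 25.5 CPM in WT hypoxia, against 8.79, 10.3 and 9.06 CPM in WT normoxia. All hypoxia libraries were above all normoxia libraries, with a rise of 1.37 ± 0.16 (SE, adjusted p = 2.9e-05) in KO and 1.39 ± 0.16 (SE, adjusted p = 2.77e-05) in WT. The difference between these responses was -0.03 ± 0.22 (SE, adjusted p = 0.984).

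Sesn2 (ENSMUSG00000028893, chromosome 4, 132492032 to 132510501, minus strand) encodes Sestrin-2, a leucine sensor that restrains mTORC1. Its level was 40.7, 33.8 and 44.0 CPM in KO hypoxia, against 23.0, 24.0 and 21.3 CPM in KO normoxia. In WT it was 31.8, 34.7 and 35.9 CPM under hypoxia, against 24.4, 24.6 and 24.3 CPM under normoxia. Hypoxia and normoxia libraries were apart in each genotype, with a rise of 0.79 ± 0.10 (SE, adjusted p = 7.43e-05) in KO and 0.48 ± 0.10 (SE, adjusted p = 0.00322) in WT.

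Eif2ak4 (ENSMUSG00000005102, chromosome 2, 118388618 to 118475234, plus strand) encodes GCN2, the eIF2α kinase that responds to uncharged tRNA. KO cells had 91.9, 87.1 and 87.7 CPM under hypoxia, against 58.0, 58.8 and 55.8 CPM under normoxia. WT cells had 72.4, 71.7 and 76.8 CPM under hypoxia, against 52.8, 48.2 and 59.7 CPM under normoxia. The gene rose by 0.63 ± 0.08 (SE, adjusted p = 6.41e-05) in KO and 0.46 ± 0.08 (SE, adjusted p = 0.000786) in WT, again with no overlap between conditions.

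Cebpg (ENSMUSG00000056216, chromosome 7, 35046422 to 35056573, minus strand), a C/EBP partner of ATF4, was at 149, 158 and 154 CPM in KO hypoxia, against 112, 114 and 110.2 CPM in KO normoxia. Cebpg in WT had 125, 118 and 125 CPM under hypoxia, against 98.6, 105 and 108 CPM under normoxia. The KO hypoxia libraries were the highest 3 of the 12, and the rise was 0.46 ± 0.06 (SE, adjusted p = 0.000102) in KO and 0.24 ± 0.06 (SE, adjusted p = 0.0104) in WT.

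Ddit3 (ENSMUSG00000025408, chromosome 10, 127290774 to 127296288, plus strand) encodes CHOP, a C/EBP-like factor linked to cell death under lasting stress. It had 50.1, 49.2 and 51.8 CPM in KO hypoxia, against 38.5, 39 and 36.1 CPM in KO normoxia. Ddit3 in WT hypoxia was at 40.8, 48.7 and 42.7 CPM, against 37.7, 39.1 and 35.7 CPM in WT normoxia. The conditions did not overlap in either genotype. The rise was 0.41 ± 0.08 (SE, adjusted p = 0.00215) in KO, and 0.23 ± 0.08 (SE, adjusted p = 0.0498) in WT, where 11 of the 12 fits that left out 1 library lost the call. Ddit3 and Mars lie on opposite strands and share 68 exon bases, and the strand setting of the counting is not given in the sources used here.

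Chac1 (ENSMUSG00000027313, chromosome 2, 119351229 to 119354381, plus strand), which breaks down glutathione, was at 8.61, 8.06 and 7.97 CPM in KO hypoxia, against 5.58, 5.59 and 3.97 CPM in KO normoxia. WT hypoxia libraries had 7.96, 9.64 and 7.62 CPM, against 4.92, 6.12 and 5.39 CPM in WT normoxia. Chac1 rose by 0.70 ± 0.16 (SE, adjusted p = 0.0056) in KO and 0.62 ± 0.16 (SE, adjusted p = 0.0122) in WT. Atf5, a bZIP factor of the same network, rose in KO by 0.43 ± 0.13 (SE, adjusted p = 0.0217) and had 0.28 ± 0.13 (SE, adjusted p = 0.127) in WT.

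The other 4 members of the class were called in neither genotype without a block. Atf3, an ATF4-induced factor, changed by 0.62 ± 0.23 (SE, adjusted p = 0.0576) in KO and 0.33 ± 0.23 (SE, adjusted p = 0.305) in WT. Cebpb, which shares 20.7% of its exon bases with the opposite-strand gene Tmem189, had 0.61 ± 0.33 (SE, adjusted p = 0.186) in KO and 0.47 ± 0.32 (SE, adjusted p = 0.303) in WT. Nupr1, a small stress-induced chromatin protein, had the lowest level of the 40 genes per length, at most 1.20 CPM per kilobase of exon in any group. Ppp1r15a encodes GADD34, which directs the phosphatase that reverses eIF2α phosphorylation, and its libraries spread widely. It was at 79.3, 62.6 and 47.1 CPM in KO hypoxia, against 76.6, 36.3 and 26.0 CPM in KO normoxia, where KO normoxia library 1 stood apart from the others. In WT it was at 65.0, 46.0 and 45.1 CPM under hypoxia, against 39.1, 32.7 and 26.2 CPM under normoxia, which did not overlap, and the difference was 0.67 ± 0.37 (SE, adjusted p = 0.215). Ppp1r15a passed in WT with the block shared by the genotypes (adjusted p = 0.0167) and with the block within genotype (0.00725). In KO the shared block called Atf3 (0.0389) and Ppp1r15a (0.0426). The block within genotype called Atf3 (0.0144), Cebpb (0.0318) and Ppp1r15a (0.0162) in KO, although KO libraries were not taken as paired.

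The serine and one-carbon enzymes rose in 4 of 5 cases in KO, with a median log2 fold change of 0.79. In WT 1 of 5 rose, with a median of 0.30. A block on replicate number shared by the genotypes gave 3 of 5 in WT, and a block within genotype 1 of 5. Over all tested genes 14.5% rose in KO and 11.4% in WT. Shmt2 (ENSMUSG00000025403, chromosome 10, 127517123 to 127522444, minus strand), the mitochondrial enzyme that moves a carbon of serine onto folate, rose in both. It stood at 255, 265 and 271 CPM in KO hypoxia, against 147, 159 and 132 CPM in KO normoxia. Shmt2 in WT had 172, 214 and 219 CPM under hypoxia, against 144, 155 and 138 CPM under normoxia. The KO hypoxia libraries were above all others, with a rise of 0.86 ± 0.10 (SE, adjusted p = 2.44e-05) in KO and 0.47 ± 0.10 (SE, adjusted p = 0.00261) in WT.

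Phgdh (ENSMUSG00000053398, chromosome 3, 98313170 to 98339990, minus strand) catalyses the first step of serine synthesis from a glycolytic intermediate. KO hypoxia had 230.4, 269.6 and 273 CPM, against 151, 159 and 136 CPM in KO normoxia. WT hypoxia had 161, 183 and 191 CPM, against 152, 172 and 142 CPM in WT normoxia. The KO conditions did not overlap and the WT conditions overlapped, at 0.79 ± 0.10 (SE, adjusted p = 5.66e-05) in KO and 0.20 ± 0.10 (SE, adjusted p = 0.15) in WT.

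Mthfd2 (ENSMUSG00000005667, chromosome 6, 83305691 to 83325908, minus strand), the next mitochondrial folate enzyme after Shmt2, was at 138, 149 and 158 CPM in KO hypoxia, against 82.4, 96.4 and 72.5 CPM in KO normoxia. In WT it had 101, 107 and 119.7 CPM under hypoxia, against 85.6, 99.8 and 82.2 CPM under normoxia. The conditions did not overlap in either genotype, and the change passed the test in KO (0.82 ± 0.11 SE, adjusted p = 9.96e-05) but not in WT (0.30 ± 0.11 SE, adjusted p = 0.059). In WT Mthfd2 passed with a block shared by the genotypes (adjusted p = 0.035) but not with the block within genotype.

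Psph (ENSMUSG00000029446, chromosome 5, 129765558 to 129787449, minus strand), the last step of serine synthesis, was at 14.1, 22.0 and 14.8 CPM in KO hypoxia, against 12.2, 12.1 and 11.9 CPM in KO normoxia. WT hypoxia had 17.2, 17.4 and 18.4 CPM, against 13.0, 16.4 and 11.2 CPM in WT normoxia. KO hypoxia library 2 stood above the other 2 of its group. The changes were 0.49 ± 0.17 (SE, adjusted p = 0.0411) in KO, a call that 6 of the 12 fits without 1 library lost, and 0.39 ± 0.17 (SE, adjusted p = 0.104) in WT. There the block shared by the genotypes gave an adjusted p of 0.0463, and the block within genotype did not call Psph. Psph shares 10.4% of its exon bases with the opposite-strand gene Cct6a. Psat1, the enzyme of the middle step, had 0.28 ± 0.11 (SE, adjusted p = 0.0736) in KO and -0.17 ± 0.11 (SE, adjusted p = 0.293) in WT.

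Asns (ENSMUSG00000029752, chromosome 6, 7675169 to 7693254, minus strand), which makes asparagine from aspartate and glutamine and is a classic ATF4 target, rose more than any other member in KO. KO hypoxia had 39.8, 38.7 and 42.2 CPM, against 14.5, 16.3 and 14.8 CPM in KO normoxia. WT hypoxia had 28.6, 31.4 and 34.1 CPM, against 16.9, 16.4 and 17.4 CPM in WT normoxia. Every KO hypoxia library was above every WT hypoxia library, and these in turn were above all normoxia libraries. The rise was 1.40 ± 0.09 (SE, adjusted p = 2.99e-07) in KO and 0.89 ± 0.09 (SE, adjusted p = 1.27e-05) in WT.

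The proline enzymes changed less. Aldh18a1 (ENSMUSG00000025007, chromosome 19, 40550257 to 40588463, minus strand), which starts proline synthesis from glutamate, had 84.3, 101 and 103 CPM in KO hypoxia, against 79.2, 81.9 and 70.5 CPM in KO normoxia. WT hypoxia had 86.9, 94.7 and 76.9 CPM, against 76.7, 78.1 and 74.9 CPM in WT normoxia. It rose by 0.32 ± 0.10 (SE, adjusted p = 0.0232) in KO and had 0.17 ± 0.10 (SE, adjusted p = 0.211) in WT, where the conditions overlapped. Pycr1 (ENSMUSG00000025140, chromosome 11, 120635712 to 120643769, minus strand), the last step, was at 6.29, 7.58 and 6.20 CPM in KO hypoxia, against 5.30, 5.59 and 4.77 CPM in KO normoxia. In WT Pycr1 was at 7.79, 9.29 and 7.52 CPM under hypoxia, against 6.08, 6.81 and 5.23 CPM under normoxia. The conditions did not overlap in either genotype, with 0.36 ± 0.15 (SE, adjusted p = 0.0943) in KO and 0.44 ± 0.15 (SE, adjusted p = 0.0444) in WT, a WT call that 10 of the 12 fits without 1 library lost. In KO Pycr1 passed with a block on replicate number shared by the genotypes (adjusted p = 0.0497).

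**Figure D2:**
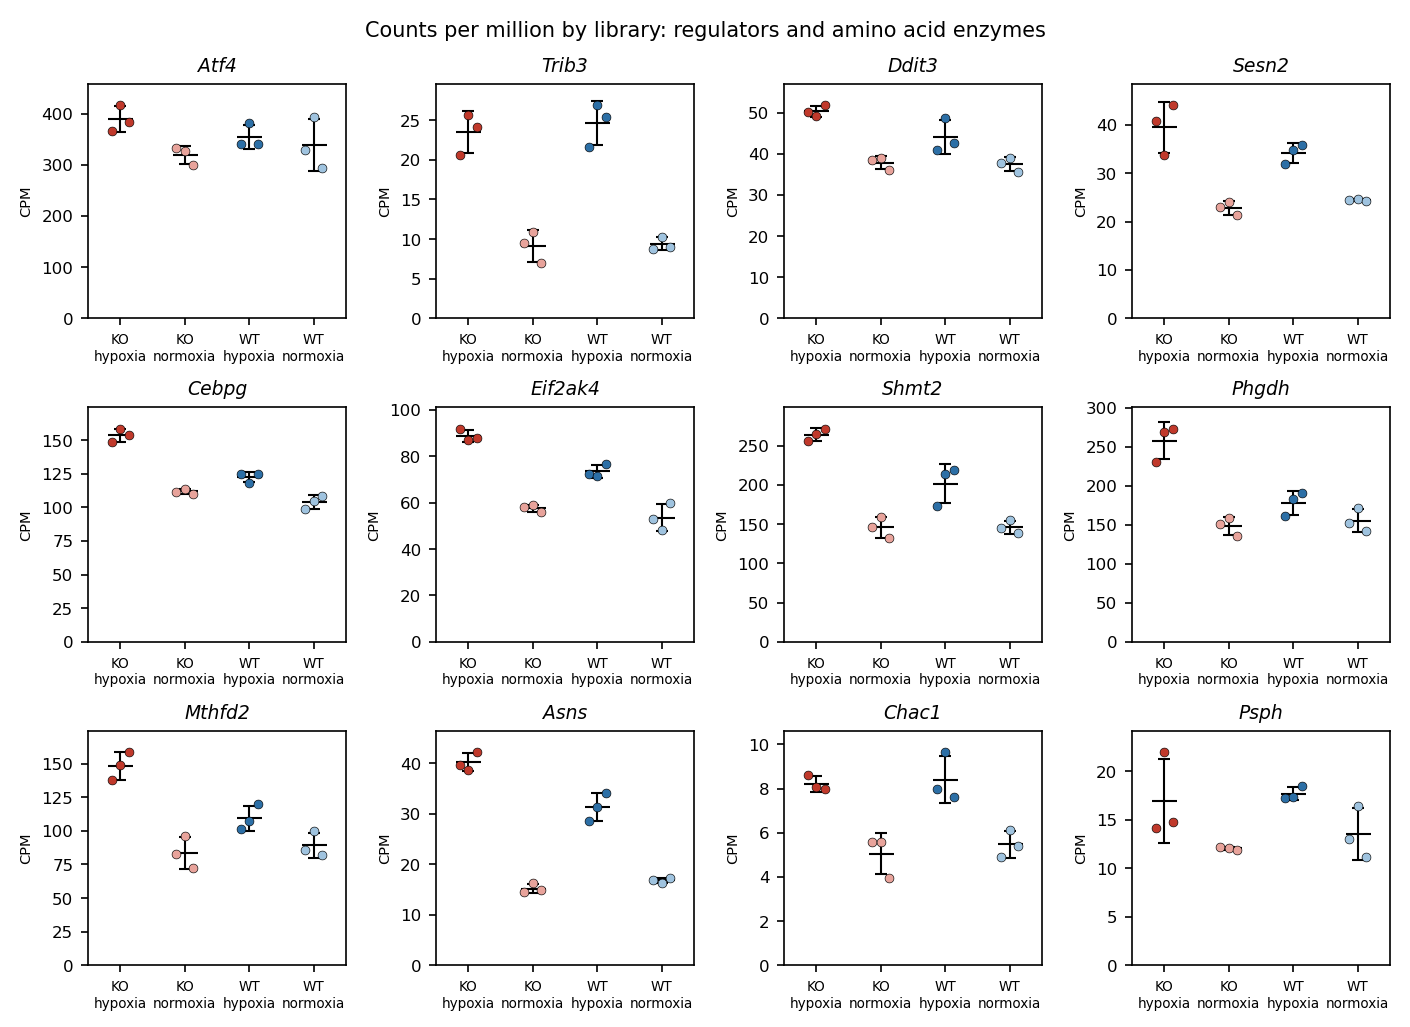
CPM (TMM-scaled, linear axis from 0) of 12 regulators and amino acid enzymes in each library, with the mean and SD of 3 libraries per group. KO hypoxia lies above KO normoxia for each gene shown, and Shmt2, Phgdh, Mthfd2 and Asns are highest in KO hypoxia.

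**Figure D3:**
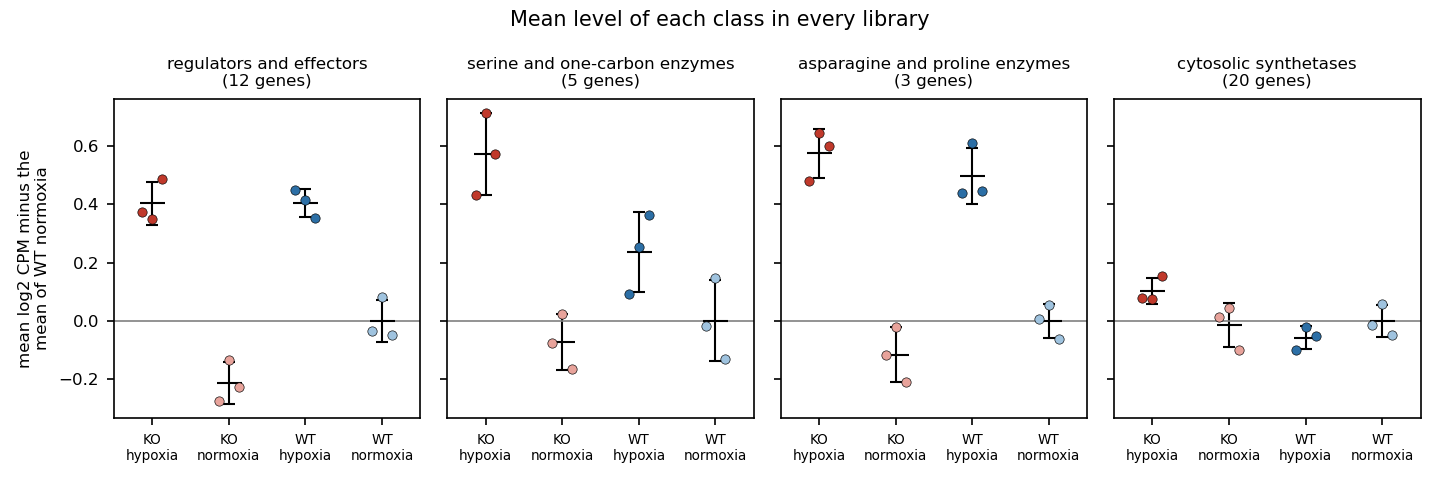
Mean over the genes of each class of log2 CPM, less the mean of the WT normoxia libraries, 1 point per library, with the mean and SD of 3 libraries per group. The serine and one-carbon class lies at 0.43 to 0.71 in KO hypoxia and 0.09 to 0.36 in WT hypoxia, and the cytosolic synthetases stay within 0.16 of 0 in all libraries.

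Averaged over a class, the regulators stood at 0.35 to 0.49 above the WT normoxia mean in KO hypoxia libraries and at -0.27 to -0.13 in KO normoxia libraries, on the log2 CPM scale. In WT hypoxia libraries they stood at 0.35 to 0.45, so the levels under hypoxia overlapped between genotypes. The serine and one-carbon enzymes stood at 0.43 to 0.71 in KO hypoxia libraries, above the 0.09 to 0.36 of WT hypoxia libraries. The asparagine and proline enzymes overlapped, at 0.48 to 0.64 in KO hypoxia and 0.44 to 0.61 in WT hypoxia. The class mean of the synthetases hides movements in both directions.

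The 20 cytosolic synthetases, which attach each amino acid to its tRNA, split under hypoxia. In KO 10 rose and 3 fell, against 14.5% and 15.7% of all tested genes. In WT 4 rose and 8 fell, against 11.4% and 16.3%. The median log2 fold change was 0.11 in KO and 0.05 in WT. Sars, Cars, Iars and Nars rose in both genotypes, and Wars, Kars and Hars fell in both. Aars, Mars, Gars, Tars, Yars and Eprs passed the test only in KO, and Qars, Farsb, Rars, Vars and Farsa fell by the test only in WT. Lars and Dars were called in neither, at -0.02 ± 0.07 and -0.09 ± 0.08 (SE) in KO and -0.20 ± 0.07 and 0.16 ± 0.08 in WT. The fold changes had the same sign in both genotypes for 19 of the 20, and were higher in KO for 19 of the 20. The median difference was 0.18, beside 0.03 over all tested genes.

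Aars (ENSMUSG00000031960, chromosome 8, 111033144 to 111057664, plus strand), the alanine enzyme, had the smallest adjusted p of the 40 genes in the comparison of the genotypes under hypoxia. KO hypoxia had 283, 260.4 and 310.3 CPM, against 183, 195 and 167 CPM in KO normoxia. WT hypoxia had 187, 201 and 213 CPM, against 190.3, 196 and 183 CPM in WT normoxia. The KO hypoxia libraries lay above the other 9 libraries, which overlapped, and the change was 0.65 ± 0.08 (SE, adjusted p = 8.16e-05) in KO and 0.08 ± 0.08 (SE, adjusted p = 0.512) in WT. Aars shares 14.3% of its exon bases with Exosc6 on the same strand, and how many reads fall there was not measured.

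Mars (ENSMUSG00000040354, chromosome 10, 127296221 to 127311786, minus strand), the methionine enzyme, had 157, 151 and 191 CPM in KO hypoxia, against 112, 124 and 104 CPM in KO normoxia. Mars in WT had 122, 128 and 137 CPM under hypoxia, against 105, 109 and 112 CPM under normoxia. Hypoxia was above normoxia in each genotype, with 0.56 ± 0.09 (SE, adjusted p = 0.000707) in KO and 0.25 ± 0.09 (SE, adjusted p = 0.0677) in WT, which missed the threshold.

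Sars (ENSMUSG00000068739, chromosome 3, 108424865 to 108445209, minus strand), the serine enzyme, had the largest synthetase rise in KO, while that of Cars was larger in WT. It was at 241, 217 and 262 CPM in KO hypoxia, against 149, 159 and 136 CPM in KO normoxia. WT cells had 197, 219 and 199 CPM under hypoxia, against 154, 166 and 142 CPM under normoxia. The conditions did not overlap, and Sars rose by 0.70 ± 0.09 (SE, adjusted p = 7.37e-05) in KO and 0.41 ± 0.09 (SE, adjusted p = 0.00374) in WT.

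Cars (ENSMUSG00000010755, chromosome 7, 143557230 to 143600090, minus strand), the cysteine enzyme, stood at 165, 155 and 185 CPM in KO hypoxia, against 116, 116 and 105 CPM in KO normoxia. In WT hypoxia Cars was at 140.4, 159.7 and 152 CPM, against 107, 119.9 and 105 CPM in WT normoxia. It rose by 0.58 ± 0.08 (SE, adjusted p = 0.000204) in KO and 0.44 ± 0.08 (SE, adjusted p = 0.00161) in WT, and the hypoxia libraries of the genotypes overlapped.

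Wars (ENSMUSG00000021266, chromosome 12, 108860030 to 108894174, minus strand), the tryptophan enzyme and a known interferon-induced gene, fell most. KO hypoxia libraries had 59.5, 63.4 and 63.1 CPM, against 108, 100.2 and 102 CPM in KO normoxia. WT hypoxia libraries had 56.9, 61.9 and 57.1 CPM, against 104, 104 and 99.7 CPM in WT normoxia. All 6 hypoxia libraries lay below all 6 normoxia libraries, at -0.74 ± 0.07 (SE, adjusted p = 3.39e-06) in KO and -0.81 ± 0.07 (SE, adjusted p = 1.99e-06) in WT.

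Kars (ENSMUSG00000031948, chromosome 8, 111993443 to 112011323, minus strand), the lysine enzyme, followed. Its level was 76.5, 81.2 and 76.0 CPM in KO hypoxia, against 100.5, 106 and 100.5 CPM in KO normoxia. In WT it was 71.7, 82.8 and 73.4 CPM under hypoxia, against 115, 116 and 100.1 CPM under normoxia. Kars fell in both, with a log2 fold change of -0.39 ± 0.08 (SE, adjusted p = 0.00208) in KO and -0.54 ± 0.08 (SE, adjusted p = 0.000227) in WT. Hars, the histidine enzyme, had -0.38 ± 0.10 (SE, adjusted p = 0.0134) in KO and -0.41 ± 0.10 (SE, adjusted p = 0.00896) in WT, and shares 7.97% of its exon bases with its opposite-strand paralogue Hars2.

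**Figure D4:**
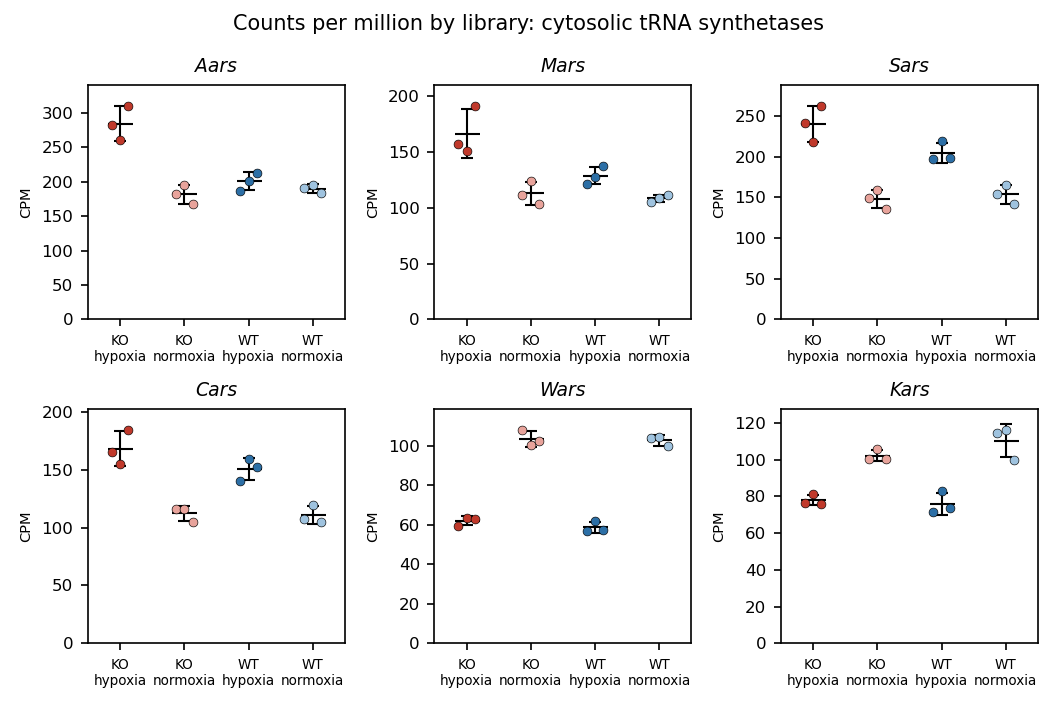
CPM (TMM-scaled, linear axis from 0) of 6 cytosolic synthetase genes in each library, with the mean and SD of 3 libraries per group. Aars, Mars, Sars and Cars are higher in KO hypoxia than in KO normoxia, while Wars and Kars are lower under hypoxia in both genotypes.

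The remaining synthetase calls were smaller. Iars had 0.51 ± 0.11 in KO and 0.34 ± 0.11 in WT, and Nars 0.37 ± 0.07 in KO and 0.21 ± 0.07 in WT, called in both genotypes, but of the 12 fits without 1 library 8 lost the WT call of Iars and 10 that of Nars. Gars (0.42 ± 0.11), Tars (0.34 ± 0.08), Yars (0.26 ± 0.07) and Eprs (0.25 ± 0.08) rose in KO. In WT the falls were -0.34 ± 0.07 for Qars, -0.32 ± 0.08 for Farsb, -0.27 ± 0.08 for Rars, -0.27 ± 0.08 for Vars and -0.22 ± 0.07 for Farsa. Farsa and Farsb encode the 2 subunits of the phenylalanine enzyme. A group of 8 synthetases sits in the cytosolic multisynthetase complex (Dars, Eprs, Iars, Kars, Lars, Mars, Qars and Rars): 3 of these rose and 1 fell in KO, and 1 rose and 3 fell in WT. The other 12 gave 7 and 2 in KO and 3 and 5 in WT, so both groups held calls in both directions. Among all tested genes 14.5% rose and 15.7% fell in KO, and 11.4% rose and 16.3% fell in WT. The single calls among the 8 lie near these shares. Vars, the valine enzyme, was the most abundant synthetase per length, at 110 to 139 CPM per kilobase of exon over the group means.

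Of the 21 calls in the WT response, 12 held without any 1 library, and Trib3, Asns, Kars and Wars held in every alternative tried. Without WT normoxia library 1, 13 genes were called, beside 19.6% of all tested genes. A fit of the Xist-positive libraries free of Y-linked reads leaves 1 WT library per condition. That library is assumed to vary like the other groups, so the number of WT calls from this fit is not given. Sesn2, Eif2ak4, Cars, Hars, Qars and Sars lost their WT call in this fit alone, which therefore says little about them. Of the 26 KO calls, 16 held in every alternative and 20 without any 1 library. In these bulk libraries fewer cells of a type and less RNA per cell cannot be told apart.

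Under hypoxia, KO cells had higher levels than WT cells of 9 of the 40 genes and lower levels of none, against 4.72% of all tested genes that were higher and 5.12% that were lower. The 9 were Aars, Phgdh, Cebpg, Shmt2, Mthfd2, Asns, Mars, Psat1 and Eif2ak4, and 4 of them belong to the 5 serine and one-carbon enzymes. At an unadjusted p under 0.05 the count was 19 above 0 and 1 below 0 (Dars), against 25.4% of all tested genes in either direction. The median difference of the 40 genes was 0.16 on the log2 scale, beside -0.03 over all tested genes, and 18 of the 20 synthetases lay above 0.

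Aars was higher in KO hypoxia by 0.50 ± 0.08 (SE, adjusted p = 0.00326), Phgdh by 0.53 ± 0.10 (SE, adjusted p = 0.00562), Cebpg by 0.32 ± 0.06 (SE, adjusted p = 0.00615) and Shmt2 by 0.39 ± 0.09 (SE, adjusted p = 0.0227). The libraries of KO hypoxia and WT hypoxia, given above, did not overlap for any of these 4 genes. Mthfd2 differed by 0.44 ± 0.11 (SE, adjusted p = 0.0241), Asns by 0.36 ± 0.09 (SE, adjusted p = 0.0243) and Mars by 0.37 ± 0.09 (SE, adjusted p = 0.0282). Psat1, called in neither hypoxia response, had 87.7, 114 and 93.6 CPM in KO hypoxia, against 63.7, 74.5 and 86.3 CPM in WT hypoxia, a difference of 0.39 ± 0.11 (SE, adjusted p = 0.0409). Eif2ak4 differed by 0.27 ± 0.08 (SE, adjusted p = 0.0447). The KO and WT hypoxia libraries overlapped for Trib3, with -0.07 ± 0.15 (SE, adjusted p = 0.823), and for Wars, with 0.08 ± 0.07 (SE, adjusted p = 0.471).

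These genotype calls rest on few libraries. Aars, Phgdh and Cebpg kept their calls without any 1 library. The count was 3 without WT hypoxia library 1 (3.73% of all tested genes called) and 4 without WT hypoxia library 2 (4.18%). It was 5 without KO hypoxia library 1 (3.73%), 4 without KO hypoxia library 3 (7%) and 2 without the KO libraries numbered 1 (2.17%). With no library left out 9.84% of all tested genes were called, so calls of any kind became fewer too. In the fit of the Xist-positive libraries free of Y-linked reads, which leaves 1 WT library per condition, the 9 differences were 0.19 to 0.51. With the monocyte and neutrophil levels as covariates the count was 0 and the 9 differences were 0.14 to 0.46. Few genes of any kind were called with the covariates, 0.0914% of all tested genes, so this count of 0 says little about these members.

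**Figure D5:**
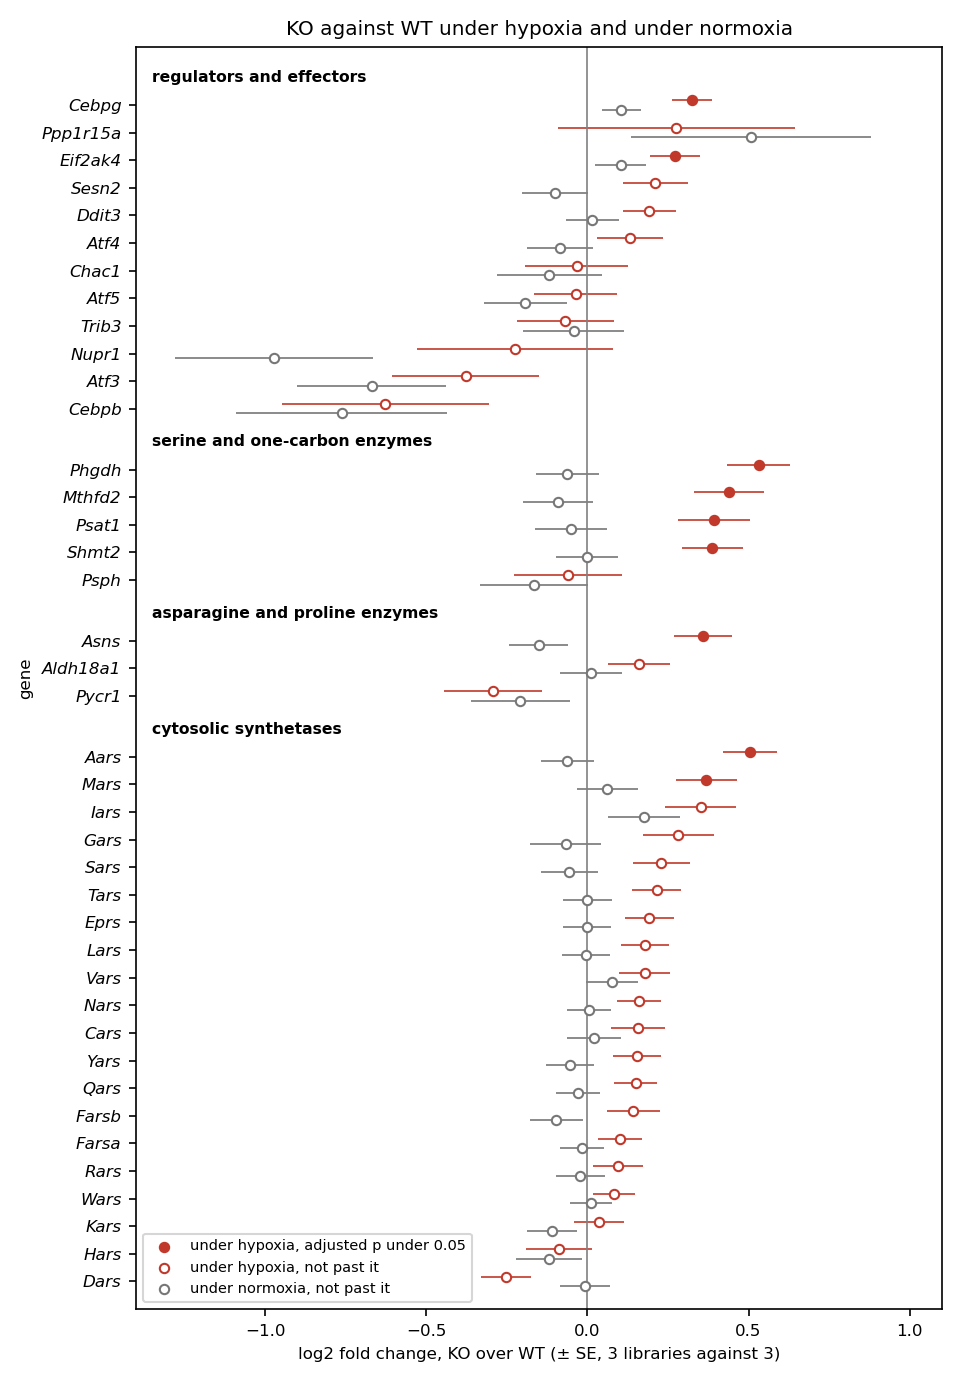
Log2 fold changes of the 40 genes, KO over WT, under hypoxia (red) and under normoxia (grey), with standard errors, from 3 libraries against 3. Filled circles passed an adjusted p of 0.05. The 9 filled circles lie between 0.27 and 0.53, and no gene passed the threshold under normoxia.

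Under normoxia none of the 40 genes differed between KO and WT by the edgeR test, against 0.00571% of all tested genes called higher and 0.0171% called lower in KO. DESeq2 also called 0 of the 40. An unadjusted p under 0.05 was found for 3 of the 40, against 9.11% of all tested genes, so their number is no result about the members. These were Nupr1, Atf3 and Cebpb, all with lower values in KO. Nupr1 was at 0.893, 1.60 and 2.18 CPM in KO normoxia, against 2.60, 2.95 and 3.53 CPM in WT normoxia, a difference of -0.97 ± 0.31 (SE, adjusted p = 0.4). Atf3 differed by -0.67 ± 0.23 (SE, adjusted p = 0.437) and Cebpb by -0.76 ± 0.33 (SE, adjusted p = 0.517). The monocyte and macrophage markers summed to 698 to 1296 CPM in KO normoxia, against 1244 to 1728 CPM in WT normoxia, and their part in these values was not tested. The 20 synthetases lay between -0.12 and 0.18.

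Whether the hypoxia response differed between the genotypes was tested as an interaction, the KO response less the WT response. The edgeR test called 0 of the 40 genes, against 0.103% of all tested genes called higher and 0.314% called lower. An unadjusted p under 0.05 was reached by 12, of which 11 lay above 0, against 10.2% of all tested genes. DESeq2 called 3 (Aars, Phgdh and Asns), against 2.63% of the genes it gave an adjusted p. Aars had 0.57 ± 0.12 (SE, adjusted p = 0.0589), Phgdh 0.59 ± 0.14 (SE, adjusted p = 0.0955) and Asns 0.51 ± 0.13 (SE, adjusted p = 0.131). The values of Mthfd2 (0.53 ± 0.15 SE, adjusted p = 0.204), Shmt2 (0.39 ± 0.13 SE, adjusted p = 0.301) and Psat1 (0.44 ± 0.16 SE, adjusted p = 0.313) followed. All 5 serine and one-carbon enzymes lay above 0, with a median of 0.44 beside 0.03 over all tested genes. By the edgeR test no gene called in KO alone is shown to respond differently from WT, whereas DESeq2 called Aars and Phgdh among them. With edgeR, 3 members were called without WT hypoxia library 3 (1.24% of all tested genes called) and 2 without WT normoxia library 3 (0.553%).

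Neighbouring genes of the pathway were followed in lists by role. For comparison with their counts, 14.5% of all tested genes rose and 15.7% fell in KO, and 11.4% rose and 16.3% fell in WT. Of 18 tested amino acid transporter, redox and other targets of ATF4, 12 rose and 0 fell in KO, and 8 rose and 1 fell in WT, with a median of 0.82 in KO and 0.79 in WT. Gpt2, the mitochondrial alanine aminotransferase, rose by 1.5 ± 0.13 (SE, adjusted p = 2.77e-06) in KO and 1.36 ± 0.13 (SE, adjusted p = 7.44e-06) in WT. Slc38a2, a carrier of small neutral amino acids, rose by 1.12 ± 0.11 (SE, adjusted p = 9.96e-06) in KO and 0.86 ± 0.11 (SE, adjusted p = 9.33e-05) in WT. Vldlr, a lipoprotein receptor that HIF also induces in other cells, rose by 4.64 ± 0.49 (SE, adjusted p = 1.97e-05) in KO and 4.18 ± 0.44 (SE, adjusted p = 2.06e-05) in WT. Its normoxia libraries had only 6, 8 and 6 counts in KO and 17, 19 and 12 in WT, so the size of these rises is uncertain.

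Ddit4, an inhibitor of mTORC1 that both ATF4 and HIF-1α can induce, had a smaller rise in KO than in WT. It had 74.2, 87.5 and 92.9 CPM in KO hypoxia, against 48.1, 53.5 and 41.6 CPM in KO normoxia. In WT hypoxia it reached 304, 267 and 198 CPM, against 61.2, 60.7 and 49.7 CPM in WT normoxia. The rise was 0.83 ± 0.15 (SE, adjusted p = 0.00125) in KO and 2.17 ± 0.15 (SE, adjusted p = 1.01e-06) in WT, and the responses differed by -1.34 ± 0.21 (SE, adjusted p = 0.0173). Under hypoxia KO minus WT was -1.60 ± 0.15 (SE, adjusted p = 0.000112) for Ddit4, 0.35 ± 0.07 (SE, adjusted p = 0.0125) for the glutamine carrier Slc1a5 and 0.46 ± 0.11 (SE, adjusted p = 0.0211) for Slc38a2.

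Of 14 genes for eIF2α, its kinases, exchange factor and sensors other than Eif2ak4 and Ppp1r15a, none rose, 5 fell in KO and 6 fell in WT. Falls were called for 15.7% of all tested genes in KO and 16.3% in WT. Eif2ak2, which encodes the double-stranded RNA kinase PKR and is interferon-induced, fell, with -2.33 ± 0.27 (SE, adjusted p = 0.000119) in KO and -1.75 ± 0.26 (SE, adjusted p = 0.000727) in WT. Eif2b3, a subunit of the eIF2B exchange factor, had -0.57 ± 0.15 (SE, adjusted p = 0.0108) in KO and -0.95 ± 0.15 (SE, adjusted p = 0.00039) in WT. Impact, an inhibitor of GCN2, had -0.52 ± 0.11 (SE, adjusted p = 0.00346) in KO and -0.29 ± 0.11 (SE, adjusted p = 0.0663) in WT. Eif2s1, eIF2α itself, had -0.07 ± 0.08 (SE, adjusted p = 0.525) in KO and -0.39 ± 0.08 (SE, adjusted p = 0.0024) in WT.

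Of 17 synthetases of the mitochondria, 1 rose and 6 fell in KO, and 0 rose and 7 fell in WT, with medians of -0.19 and -0.34. All tested genes also fell more often than they rose, with 15.7% against 14.5% in KO and 16.3% against 11.4% in WT. Rars2 had -0.59 ± 0.10 (SE, adjusted p = 0.000752) in KO and -0.85 ± 0.10 (SE, adjusted p = 4.9e-05) in WT, and Vars2 -0.55 ± 0.09 (SE, adjusted p = 0.000517) in KO and -0.54 ± 0.09 (SE, adjusted p = 0.000615) in WT. Sars2 fell by the test in both, with -0.63 ± 0.12 (SE, adjusted p = 0.00195) in KO and -0.71 ± 0.12 (SE, adjusted p = 0.000907) in WT, whereas its cytosolic counterpart Sars rose in both. Wars2 had -0.28 ± 0.10 (SE, adjusted p = 0.0517) in KO and -0.65 ± 0.10 (SE, adjusted p = 0.000472) in WT. Aars2 was the one that rose in KO, and it was higher in KO than WT under hypoxia by 0.45 ± 0.10 (SE, adjusted p = 0.0141), as was Aars. The 3 scaffold genes of the multisynthetase complex were called in neither response.

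The other folate and serine enzymes did not follow Shmt2 and Mthfd2. Of 10 tested, 1 rose and 5 fell in KO, against 14.5% and 15.7% of all tested genes. In WT 1 rose and 4 fell, against 11.4% and 16.3%. Mthfd1, the cytosolic folate enzyme, had -0.80 ± 0.12 (SE, adjusted p = 0.000262) in KO and -1.20 ± 0.12 (SE, adjusted p = 1.17e-05) in WT. Tyms, the enzyme of thymidylate synthesis, fell in both, with -0.71 ± 0.16 (SE, adjusted p = 0.00552) in KO and -1.47 ± 0.17 (SE, adjusted p = 3.24e-05) in WT. Mthfd1l, the mitochondrial partner downstream of Mthfd2, had 33.0, 33.0 and 41.9 CPM in KO hypoxia, against 84.4, 72.1 and 59.1 CPM in WT hypoxia, a difference of -1.0 ± 0.13 (SE, adjusted p = 0.000504) in the opposite direction to Mthfd2. Aldh1l1, at no more than 49 counts in any library, was lower in KO under hypoxia (-1.84 ± 0.36 SE, adjusted p = 0.00822), and Mat2a, which makes S-adenosylmethionine, was higher (0.43 ± 0.11 SE, adjusted p = 0.028).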

How the data were processed

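RNA of 12 libraries, 3 per group, had been sequenced. The authors deposited read counts per Ensembl gene, not normalized. The submitters' processing notes name CASAVA, Bowtie 0.12.2 and the build mm10, while how genes were counted, with which annotation and strand setting, is not given in the sources used here. Coordinates are from GENCODE M21 (GRCm38) and were joined by Ensembl ID. Counts were tested with edgeR 4.0.16 (quasi-likelihood, robust, TMM factors 0.969 to 1.039) in R 4.3.3, with all 12 libraries in 1 fit and Benjamini-Hochberg adjustment over the 17506 genes that passed filterByExpr. The 29477 genes left out held 0.074% of reads. CPM are TMM-scaled, except where total counts are named. The code was tested on simulated data.

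The members and lists were chosen with earlier results of these data known. Values in every library were given for Atf4, Ddit3, up to 6 called members per class with the smallest adjusted p and up to 4 per further comparison, and up to 3 called genes were named per pathway list and comparison. A few items that this rule or the motif search gave are not reported here. Per-library values of other genes, such as Ppp1r15a, Psat1, Nupr1, Ddit4 and Mthfd1l, were added after their values were seen. Deviations of same-numbered WT hypoxia and normoxia libraries correlated at 0.196, 0.36 and 0.434 and were taken as paired, and those of KO libraries at 0.182, -0.039 and 0.12 were not. The main fit had no block, so its WT tests do not use this pairing, which enters only the fits with a block. Alternatives were RLE scaling, DESeq2 1.42.0, other count filters, only the compared groups, replicate blocks, leaving out each library, only Xist-positive libraries free of Y-linked reads, and myeloid marker levels as covariates. Leaving out the KO libraries numbered 1 was added after seeing the data.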

Additional observations from a re-analysis of the deposited data

Results flagged for a closer look

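The hypoxia response of Ddit4 differed between the genotypes by the interaction term of the edgeR quasi-likelihood test, at -1.34 on the log2 scale for the KO response less the WT response (adjusted p = 0.0173), with higher levels under hypoxia in 3 of 3 KO and 3 of 3 WT libraries.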

How the results depend on the processing

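Of the 21 members called in the WT response, 13 were called with only the compared groups, 5 in the Xist-positive libraries free of Y-linked reads, 13 with myeloid marker levels as covariates and 13 to 21 without 1 library. The 26 KO calls (30.3% of all tested genes called) became 18 with the covariates (15.3%) and 22 to 28 without 1 library (20.8% to 33.6%). The 9 calls of KO against WT under hypoxia (9.84% of all tested genes called) became 0 with the covariates (0.0914%). They became 2 without the KO libraries numbered 1 (2.17%), an alternative chosen after seeing the data. Without 1 library they were 3 to 12 (3.73% to 14.7%). Under normoxia the count was 0 in every fit without 1 library (0.0165% to 1.62%). The interaction count of 0 became 2 with no low-count filter (0.579%), 3 with DESeq2 (2.63%) and 0 to 3 without 1 library (0.0995% to 1.24%). It was 3 without WT hypoxia library 3, 2 without WT normoxia library 3 and 1 without KO hypoxia library 2. Over the fits without 1 library the log2 fold change of Atf4 in WT lay between -0.0396 (without WT normoxia library 3) and 0.17 (without WT normoxia library 2). The cause of these changes was not tested.

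With replicate number as a block shared by the genotypes, the counts were 24 in WT (31.2% of all tested genes called) and 30 in KO (33.7%). They were 10 for KO against WT under hypoxia (12.9%), 0 under normoxia and 0 for the interaction. With the block within genotype they were 22 in WT (34.3%), 30 in KO (37%) and 0 for the interaction. With 3 libraries per group, small differences were not detectable.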
